A study of Homo sapiens with 9 samples.

Results

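The genes described here are 36 members of glycolysis and of the hypoxia response, chosen to place the lower level of GAPDH under 5-Aza among the enzymes of its pathway and among targets of the transcription factor HIF1. All 36 were present among the 23284 gene symbols of the deposited tables. The list was chosen by the FPKM of GAPDH at 0 µM and 5 µM, so the values of GAPDH are a description with no test. Counts of members therefore cover the other 35 genes. They comprise 17 glycolytic and lactate-forming enzymes, 4 glucose and lactate transporters, 4 regulators of flux, and 10 HIF1 targets outside glycolysis.

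HT-29 cells are a long-cultured line from a human colon tumor, and 5-Aza (5-aza-deoxycytidine) is a nucleoside analog that, after incorporation into DNA, traps the methyltransferases and so lowers methylation. RNA-Seq was performed on 9 separate cultures of HT-29, 3 with the DMSO vehicle alone (0 µM), 3 with 5 µM and 3 with 10 µM 5-Aza, all harvested after 5 days. No knockout, transgene or hypoxia treatment is described for these cultures. All cultures were of a single line, so the p-values measure the spread between cultures of that line.

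Glycolysis splits glucose into pyruvate through a chain of cytosolic enzymes, and lactate dehydrogenase then turns pyruvate into lactate, which leaves the cell through monocarboxylate transporters. Tumor cells often run this pathway fast even with oxygen at hand. HIF1 is a dimer of an oxygen-sensitive subunit (HIF1A) and a stable partner (ARNT). In low oxygen it binds short motifs with the core ACGTG or GCGTG and raises many glycolytic genes together with genes for blood vessel growth, collagen modification and pH control. GAPDH, which oxidizes glyceraldehyde 3-phosphate, is also widely used as a reference gene for normalization.

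FPKM (fragments per kilobase of transcript, scaled to library size) is a level corrected for gene length, and is given below in kFPKM, units of 1000 FPKM. The libraries summed to between 3.69e+09 and 5.91e+09 FPKM, so the values serve as relative levels. Depth had to be estimated from the steps between low values. The library term derived from it was 1.0 to 2.135 in the control, 2.286 to 2.573 at 5 µM and 1.271 to 2.008 at 10 µM, relative to control replicate 1. Symbols above 0 numbered 16373 to 16958, 18761 to 18957 and 17114 to 17592. All 5 µM libraries were thus deeper than all others. For genes at or near 0, effects of depth and of dose at 5 µM cannot be told apart. All 12 colon epithelial markers (EPCAM, CDX2, VIL1 and others) were above 0 in every library, with sums of 90321 to 108610 kFPKM in the control, 37769 to 42431 kFPKM at 5 µM and 29655 to 52146 kFPKM at 10 µM. The summed fibroblast markers were at 22.5 to 32.4 kFPKM in the control, 82.2 to 88.7 kFPKM at 5 µM and 44.8 to 52.1 kFPKM at 10 µM. The summed endothelial markers were at 1.9 to 5.03, 9.84 to 12.4 and 3.27 to 3.59 kFPKM. At 5 µM limma called 4 of 6 fibroblast and 3 of 4 endothelial markers higher and 0 lower, against 21.3% higher and 17.7% lower of all genes tested. LYZ and CD68 kept the summed immune markers at 4538 kFPKM or more. At 5 µM limma called 7 of the 12 colon markers lower and 3 higher, against 17.7% lower and 21.3% higher of all genes tested. Those higher were CDX1 by 4.4-fold, CEACAM5 by 3.02-fold and CDH17 by 1.53-fold. Most of the colon sum came from KRT8, KRT18 and KRT19, whose means went from 39382, 32982 and 8605 kFPKM in the control to 12560, 10581 and 2479 kFPKM at 5 µM. Of the 6 immune markers limma called 3 higher and 1 lower at 5 µM, against 21.3% higher and 17.7% lower of all genes tested. LYZ, the one called lower, went from a mean of 8691 to 4395 kFPKM (log2 difference -0.99, adjusted p = 0.00147). CD68 rose from 125 to 671 kFPKM (log2 difference 2.42, adjusted p = 5.69e-05). ITGAM rose from 0.755 to 10.2 kFPKM (adjusted p = 0.00193) and CD3E from 0 to 0.804 kFPKM (adjusted p = 0.000793), both at low levels. The part of these markers in the results below was not tested. Since the samples were bulk RNA, fewer cells with a transcript and less transcript per cell cannot be told apart.

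Sequences before an annotated start are shown for 4 members because these genes stand for both directions of change at 5 µM. GAPDH and PGK1 were at lower levels, and ENO2 and ALDOC at higher levels. Each is the 250 bases before an annotated start on the gene's strand, from RefSeq with build GRCh38.p14 (GAPDH chr12:6535014-6535263, plus strand, PGK1 chrX:78103998-78104247, plus, ENO2 chr12:6914330-6914579, plus, and ALDOC chr17:28576896-28577145, minus). The reference used held 1 window for each of these genes. Whether it lies at the main start was not checked, so a window, also that of GAPDH, may lie inside the gene. Capitals mark the HIF1 core letters ACGTG or GCGTG read on either strand, and CACGTG holds ACGTG on both strands.
GAPDH: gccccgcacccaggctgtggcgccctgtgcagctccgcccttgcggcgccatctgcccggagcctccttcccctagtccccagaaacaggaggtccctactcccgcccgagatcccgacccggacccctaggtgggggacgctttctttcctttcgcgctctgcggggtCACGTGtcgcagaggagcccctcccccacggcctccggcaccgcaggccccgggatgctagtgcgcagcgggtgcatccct
PGK1: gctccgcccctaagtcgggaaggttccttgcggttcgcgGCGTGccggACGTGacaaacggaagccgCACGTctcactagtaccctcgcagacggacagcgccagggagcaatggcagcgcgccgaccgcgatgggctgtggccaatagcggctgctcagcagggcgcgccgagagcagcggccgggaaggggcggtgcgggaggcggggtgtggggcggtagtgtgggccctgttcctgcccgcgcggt
ENO2: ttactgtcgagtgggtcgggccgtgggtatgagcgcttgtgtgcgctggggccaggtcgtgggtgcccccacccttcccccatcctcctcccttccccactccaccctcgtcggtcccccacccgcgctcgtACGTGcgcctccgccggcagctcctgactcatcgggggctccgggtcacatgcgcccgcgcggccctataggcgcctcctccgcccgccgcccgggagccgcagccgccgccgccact
ALDOC: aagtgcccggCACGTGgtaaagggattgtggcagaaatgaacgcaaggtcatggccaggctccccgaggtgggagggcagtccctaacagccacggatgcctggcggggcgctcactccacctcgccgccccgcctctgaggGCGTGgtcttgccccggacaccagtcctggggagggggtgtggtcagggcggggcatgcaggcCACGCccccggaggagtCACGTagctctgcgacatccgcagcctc

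The core letters occurred in all 4 windows, with 2 matches in GAPDH, 3 in PGK1, 1 in ENO2 and 5 in ALDOC. RefSeq windows were found for 32 of the 36 members (no entry for SLC2A3, SLC16A1, VEGFA and NDRG1), 62 windows in all since several genes have more than 1 start. Of these windows 36 held either form (58.1%), against 43.2% of 35116 windows of the same length over all genes. ACGTG was in 37.1% of the members' windows and 18.5% of all windows, while GCGTG was in 33.9% and 32.2%. The members' windows were also richer in CG, with a median of 20 CG dinucleotides against 11. Among members higher at 5 µM, 8 of 10 had a window with either form, among those lower 7 of 9, and among those not called 11 of 12, with GAPDH counted apart. Counted by gene in the same way, 12945 of all 27305 symbols had such a window (47.4%). A gene with more windows has more chances of a match. A match is a description of letters and not a bound site.

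GAPDH had the highest FPKM of the members in every library. The gene spans positions 6643678 to 6647540 of chromosome 12 (GRCh37, plus strand). Its level was 11066, 10653 and 8574 kFPKM in control cultures, 5765, 6399 and 6124 with 5 µM, and 4192, 8701 and 6735 with 10 µM. All 5 µM values lay below all control values, whereas the 10 µM values spread from below the 5 µM group to within the control range. The log2 difference was -0.72 (standard error 0.14) from 0 µM to 5 µM and -0.68 (standard error 0.40) from 0 µM to 10 µM. From 5 µM to 10 µM the log2 difference was 0.04 (standard error 0.35), given with no test since the 5 µM values also chose the list. The annotation holds 65 pseudogene copies of GAPDH, to which fragments can align, so its absolute level is uncertain.

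The 736 genes with a mean of at least 1000000 FPKM, a limit chosen after the values were seen and met by 9 members, had a median log2 difference of -0.32 from 0 µM to 5 µM. Of these 736 genes 23.8% lay below the value of GAPDH, and 73.6% were negative. The share was 42.9% of all genes tested, which include genes at 0 in the control, and 52.7% of the 15418 genes above 0 in all 6 samples. From 5 µM to 10 µM 72.2% were negative, against 75.6% of all genes, so that the share was not above that of all genes there. From 0 µM to 10 µM the shares were 81.8% and 57.9%, and 65.1% of the genes above 0 in all 6 samples. These shares depend on the scaling, since scaling to equal total FPKM moved the median log2 difference at 5 µM vs. 0 µM of all genes above 0 from -0.04 to 0.25.

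**Figure D1:**
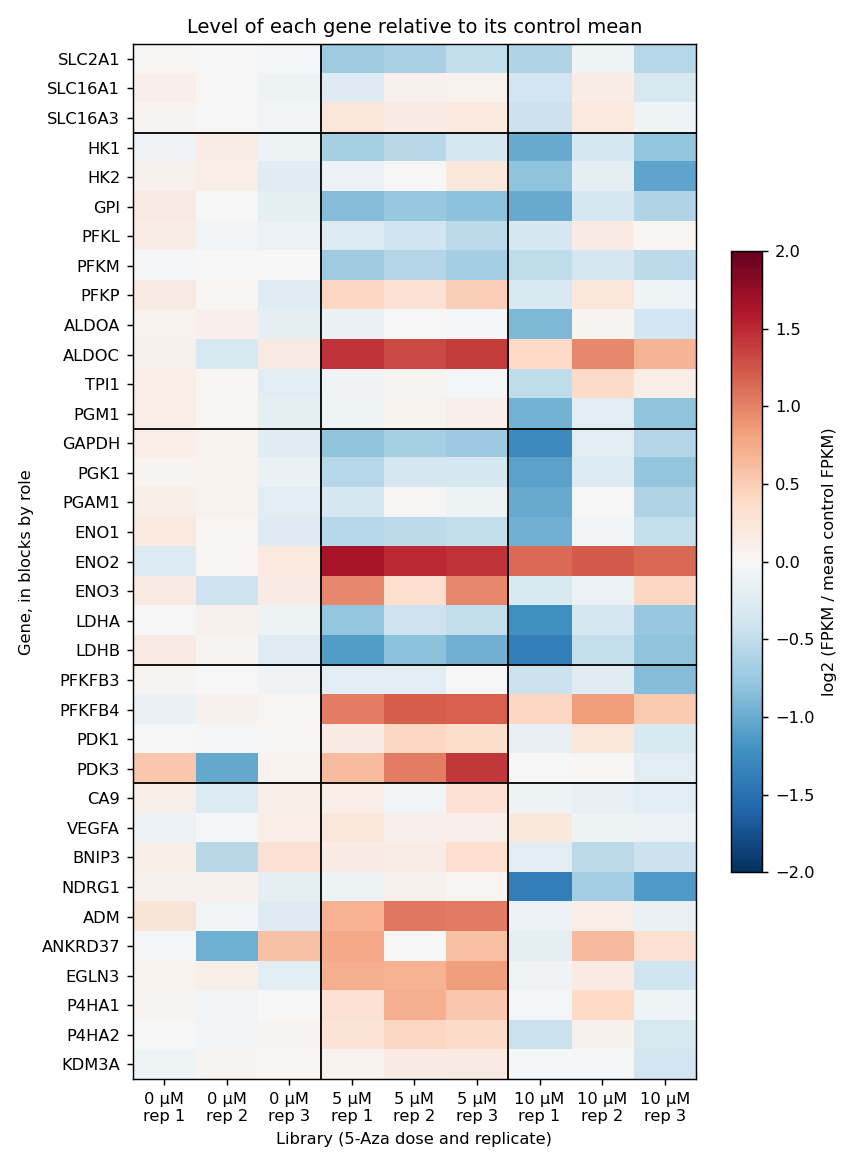
FPKM of each gene in each of the 9 libraries, as log2 of its ratio to the mean of the 3 control libraries (color, from -2 to 2), with genes in blocks by role from top to bottom (transporters, upper enzymes, lower enzymes, flux regulators, HIF1 targets outside glycolysis). SLC2A3, listed at 0 in the control, is left out. ALDOC, ENO2 and PFKFB4 are red in all 6 treated libraries, GAPDH, GPI, LDHA and LDHB are blue in all 6, and 10 µM replicate 2 is paler than the other 10 µM libraries for many enzymes.

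From 0 µM to 5 µM the enzymes of the pathway split by gene. Of the 35 members, limma called 10 higher and 9 lower at an adjusted p of at most 0.05 with any fold, and 16 were not called. Over all 20051 genes tested the shares were 21.3% higher and 17.7% lower, and since this comparison chose the list nothing is read from the members' counts. Values did not overlap between the groups for 13 members that were higher and 9 that were lower, with 29.4% and 23.2% over all genes. The median log2 difference was 0.13 for the members, 0.14 for all genes tested and -0.04 for the genes above 0 in all 6 samples. Without 5 µM replicate 3 the members called higher numbered 6. Only 3 members passed a further limit of 2-fold (ENO2, ALDOC and PFKFB4, all higher), with shares over all genes of 14.1% higher and 2.17% lower.

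The sugar-phosphate enzymes above the triose step were called in both directions, 2 higher and 4 lower of 10. GPI, which converts glucose 6-phosphate to fructose 6-phosphate, had 1153, 1025 and 890 kFPKM in the control and 560, 602 and 581 kFPKM at 5 µM. All 3 values at 5 µM were below the control range, and GPI fell with a log2 difference of -0.81 (standard error 0.10, adjusted p = 0.00175). HK1, the hexokinase of most tissues that phosphorylates glucose, went from 345, 400 and 337 to 228, 245 and 284 kFPKM without overlap. Its log2 difference was -0.52 (standard error 0.11, adjusted p = 0.0119), but the call was lost with all 9 samples in 1 fit (adjusted p = 0.0545) and under total FPKM scaling (log2 difference -0.23, adjusted p = 0.146). HK2, the hexokinase often raised in tumors, had means of 106 ± 14.2 kFPKM in the control and 109 ± 12.9 kFPKM at 5 µM (SD, n = 3), with overlapping values.

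Phosphofructokinase, the committing step of the pathway, is made from a liver (PFKL), a muscle (PFKM) and a platelet (PFKP) gene. PFKM was at 180, 184 and 183 kFPKM in the control and at 112, 121 and 113 kFPKM at 5 µM. The groups were tight and far apart, and PFKM fell with a log2 difference of -0.66 (standard error 0.06, adjusted p = 0.000677). PFKL fell from 264, 229 and 219 to 196, 181 and 163 kFPKM (log2 difference -0.40, standard error 0.10, adjusted p = 0.0242). PFKP, the most abundant of the 3, moved the other way. Its values were 590, 533 and 439 kFPKM in the control and 690, 637 and 733 kFPKM at 5 µM (log2 difference 0.41, standard error 0.12, adjusted p = 0.0398). Neither PFKL (adjusted p = 0.0734) nor PFKP (adjusted p = 0.0962) was called with all 9 samples in 1 fit, nor PFKL under total FPKM scaling (log2 difference -0.11, adjusted p = 0.331). The call of PFKL was lost without control replicate 1, control replicate 2, 5 µM replicate 2 or 5 µM replicate 3, and that of PFKP without any 1 of the 6 libraries other than control replicate 1.

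Aldolase cleaves fructose 1,6-bisphosphate into triose phosphates. ALDOC, its brain-type isozyme, had 43, 32.3 and 45.7 kFPKM in the control and 110, 101 and 107 kFPKM at 5 µM. The lowest value at 5 µM was above the highest control value by a wide margin, and ALDOC rose with a log2 difference of 1.40 (standard error 0.14, adjusted p = 0.000849). ALDOA, the abundant isozyme, had means of 5329 ± 572 kFPKM in the control and 5128 ± 226 kFPKM at 5 µM (SD, n = 3), and was not called (adjusted p = 0.747). TPI1, which interconverts the triose phosphates, had 1797, 1682 and 1416 kFPKM in the control and 1552, 1694 and 1613 kFPKM at 5 µM (log2 difference -0.0045, standard error 0.11, adjusted p = 0.978). PGM1, which links glycogen to the pathway, was not called either, with means of 160 ± 18 and 163 ± 11.4 kFPKM (SD, n = 3).

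Below the triose step, and without GAPDH, 4 of 7 enzymes fell, 2 rose and PGAM1 was not called. PGK1, which makes ATP from the product of GAPDH, had 1895, 1923 and 1667 kFPKM in the control and 1234, 1443 and 1428 kFPKM at 5 µM. The groups did not overlap, and the log2 difference was -0.42 (standard error 0.10, adjusted p = 0.0181), a call lost without control replicate 1 or 2. PGAM1, the mutase of the next step, had means of 394 ± 48.4 and 359 ± 45.3 kFPKM (SD, n = 3) with overlapping values.

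The enolases moved apart. ENO1, the main form, had 4932, 4452 and 3601 kFPKM in the control and 2900, 3019 and 3081 kFPKM at 5 µM, and fell with a log2 difference of -0.52 (standard error 0.13, adjusted p = 0.0245). ENO2, the neuronal form, had 99, 123 and 136 kFPKM in the control and 373, 336 and 324 kFPKM at 5 µM. ENO2 rose with a log2 difference of 1.54 (standard error 0.13, adjusted p = 0.000491), the greatest of the members called. ENO3, the muscle form, had 63.5, 42.5 and 63 kFPKM in the control and 109, 70.7 and 109 kFPKM at 5 µM (log2 difference 0.77, standard error 0.24, adjusted p = 0.0429). Leaving out a single library ended the call of ENO3 for all but 5 µM replicate 2, and that of ENO1 for all but control replicate 3.

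Both lactate dehydrogenases fell. LDHB, the heart-type subunit, had 3872, 3597 and 2920 kFPKM in the control and 1599, 1953 and 1777 kFPKM at 5 µM. No values overlapped, and the log2 difference was -0.96 (standard error 0.14, adjusted p = 0.00256). LDHA, the muscle-type subunit and a HIF1 target, had 2018, 2110 and 1866 kFPKM in the control and 1171, 1498 and 1415 kFPKM at 5 µM (log2 difference -0.56, standard error 0.11, adjusted p = 0.0101). Its call was lost under total FPKM scaling (log2 difference -0.27, adjusted p = 0.0594) and with all 9 samples in 1 fit (adjusted p = 0.0883). LDHA, LDHB, ENO1, PGK1, PGAM1, ALDOA and TPI1 have between 2 and 13 annotated pseudogene copies, and their values share the uncertainty named for GAPDH.

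**Figure D2:**
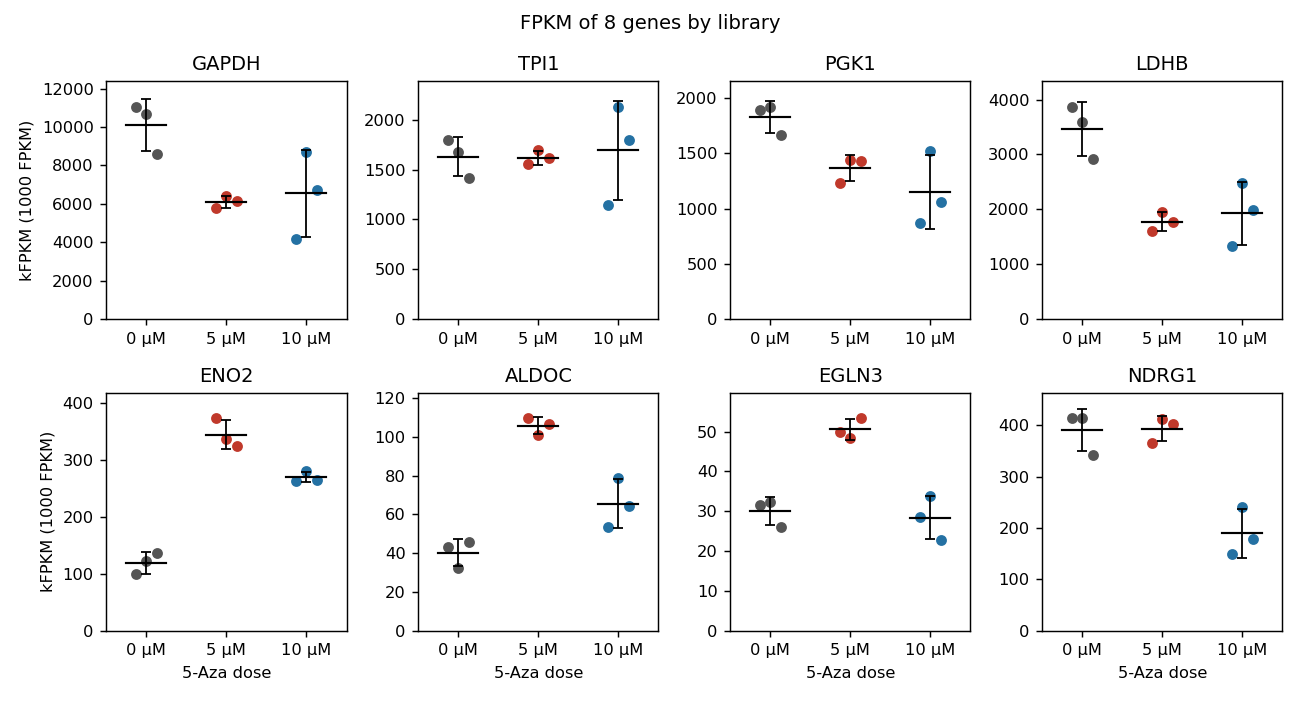
Levels in kFPKM (y axes, from 0) of 8 genes in each library by 5-Aza dose, with 3 points per dose in the order of the replicate numbers, a line at the mean and bars of 1 SD. GAPDH, PGK1 and LDHB are lower at 5 µM than in the control, TPI1 overlaps, ENO2 and ALDOC are higher, EGLN3 is higher at 5 µM only, and NDRG1 is lower at 10 µM.

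GAPDH, TPI1 and ENO2 are near each other on the plus strand of chromosome 12 (GRCh37), with TPI1 at 6976283 to 6980112 and ENO2 at 7022909 to 7032861. At 5 µM GAPDH was at lower levels than in the control, ENO2 rose and TPI1 was not called. Within a library, the GAPDH to TPI1 ratio was 6.18 ± 0.142 without 5-Aza, 3.76 ± 0.043 with 5 µM and 3.82 ± 0.226 with 10 µM (SD, n = 3). This ratio does not depend on how a library was normalized. The GAPDH to GPI ratio, by contrast, averaged 9.88 without 5-Aza, 10.5 with 5 µM and 9.67 with 10 µM, with overlapping values.

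Glucose and lactate transporters also split. SLC2A1 (GLUT1), the main glucose importer of many tumors, had 1909, 1891 and 1856 kFPKM in the control and 1151, 1200 and 1347 kFPKM at 5 µM. It fell with a log2 difference of -0.62 (standard error 0.08, adjusted p = 0.00195). SLC16A3 (MCT4), a lactate exporter and HIF1 target, had 614, 588 and 569 kFPKM in the control and 698, 663 and 676 kFPKM at 5 µM. The difference was small but without overlap, at 0.20 on the log2 scale (standard error 0.06, adjusted p = 0.0398), and leaving out any 1 of the 6 libraries ended the call. SLC16A1 (MCT1), the other lactate carrier, overlapped between the groups. SLC2A3 (GLUT3) was listed at 0 in 7 of 9 libraries and at 0.34 and 0.517 kFPKM in 5 µM replicates 1 and 3, an estimated 3.83 and 6.22 fragments, so no fold is given.

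Among the regulators of flux, PFKFB4 rose. It makes and breaks fructose 2,6-bisphosphate, the activator of phosphofructokinase, and had 9.31, 10.8 and 10.5 kFPKM in the control and 20.6, 23.5 and 23.4 kFPKM at 5 µM. Its log2 difference was 1.14 (standard error 0.15, adjusted p = 0.00175), with no overlap. Its more abundant relative PFKFB3 was not called (log2 difference -0.14, standard error 0.09, adjusted p = 0.25). PDK1 and PDK3, kinases that keep pyruvate out of the mitochondrial oxidation path, had log2 differences of 0.31 (standard error 0.11, adjusted p = 0.0593) and 1.16 (standard error 0.51, adjusted p = 0.121). PDK3 was at only 0.803 to 4.36 kFPKM over all libraries.

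The 10 HIF1 targets outside glycolysis all had positive log2 differences at 5 µM, also under both other scalings tried, with a median of 0.31, but only 4 were called, all higher. Of all genes tested 42.9% had negative differences in this comparison, and of those above 0 in all 6 samples 52.7%. ADM, a vasodilating peptide hormone, had 89.5, 72.3 and 62.7 kFPKM in the control and 121, 156 and 154 kFPKM at 5 µM (log2 difference 0.95, standard error 0.16, adjusted p = 0.0056). EGLN3, a prolyl hydroxylase that marks HIF subunits for destruction, had 31.6, 32.4 and 26 kFPKM in the control and 49.9, 48.4 and 53.4 kFPKM at 5 µM (log2 difference 0.76, standard error 0.12, adjusted p = 0.00384). Neither gene overlapped between the groups.

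P4HA1 and P4HA2 encode catalytic subunits of collagen prolyl 4-hydroxylase. P4HA1 rose from 148, 138 and 143 to 176, 236 and 208 kFPKM (log2 difference 0.52, standard error 0.11, adjusted p = 0.0136). P4HA2 rose from 387, 373 and 400 to 468, 516 and 502 kFPKM (log2 difference 0.36, standard error 0.07, adjusted p = 0.00666). Both pairs of groups were fully apart, and the call of P4HA1 was lost without 5 µM replicate 3 (adjusted p = 0.0556).

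The other 6 HIF1 targets outside glycolysis were not called. CA9, a membrane carbonic anhydrase, had 105, 80.6 and 105 kFPKM in the control and 107, 93.5 and 118 kFPKM at 5 µM (log2 difference 0.13, standard error 0.14, adjusted p = 0.466). VEGFA, the growth factor of blood vessels, had 2019, 2161 and 2411 kFPKM in the control and 2592, 2361 and 2368 kFPKM at 5 µM (log2 difference 0.15, standard error 0.10, adjusted p = 0.246). Both overlapped between the groups. BNIP3, a mitophagy receptor with 44 annotated pseudogene copies, ANKRD37, KDM3A (a histone demethylase) and NDRG1 had log2 differences of 0.26, 0.59, 0.14 and 0.01.

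**Figure D3:**
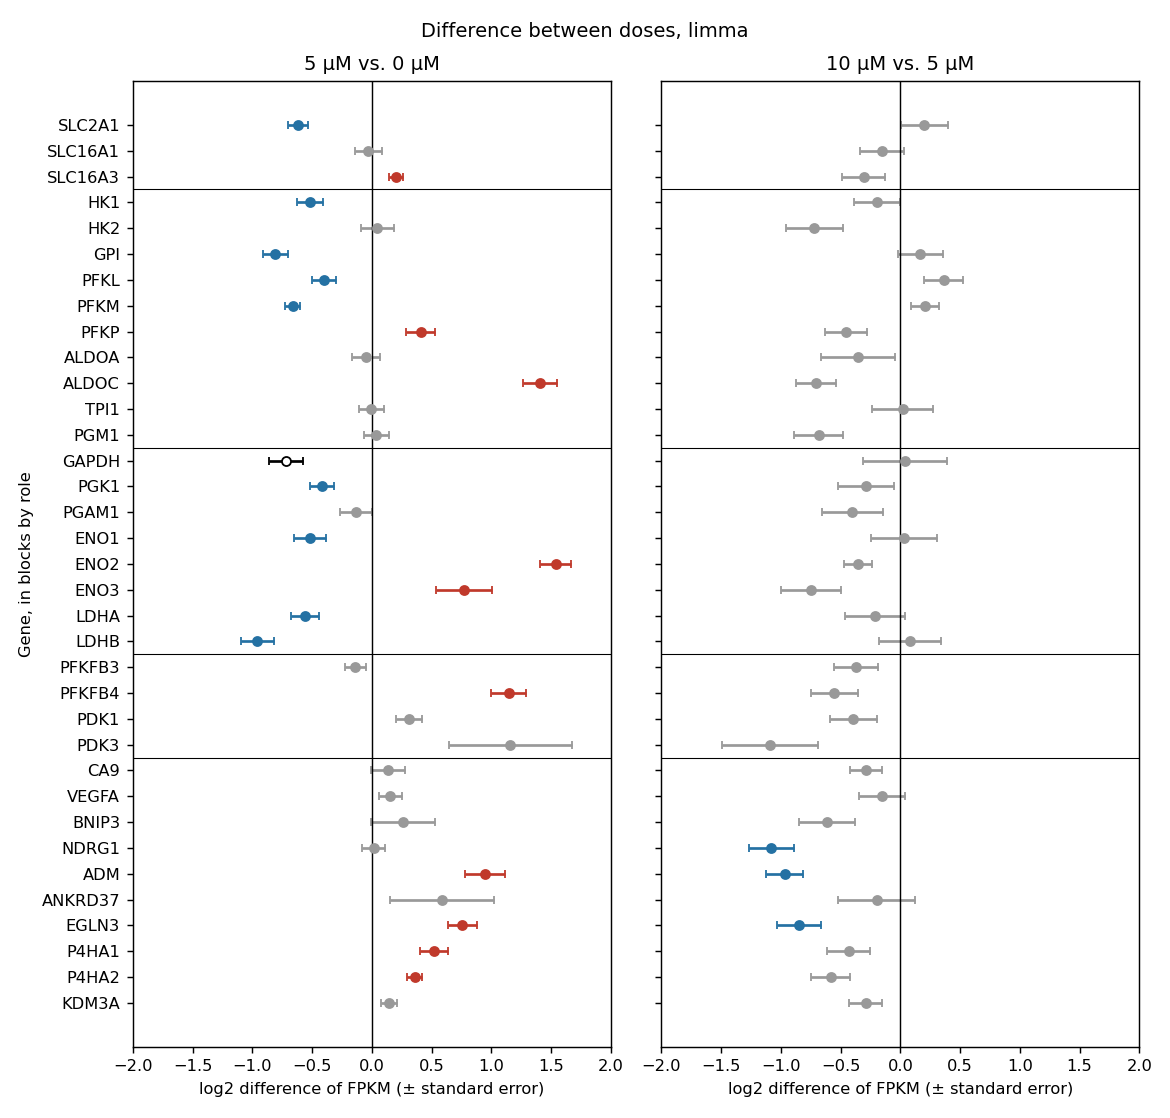
log2 difference of FPKM with its standard error (x axis) for each gene with values above 0 in the control, 5 µM against 0 µM on the left and 10 µM against 5 µM on the right, from limma. Red points were called higher, blue lower and gray not called. GAPDH on the left is an open point because its value chose the list, and its gray point on the right is a description too. Most enzymes of the left panel are split to both sides of 0, and the right panel has 3 blue points, all among the HIF1 targets.

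From 5 µM to 10 µM limma called 0 of 35 members higher and 3 lower, against 0.319% higher and 5.85% lower of 20085 genes tested. At an unadjusted p under 0.05 the members numbered 0 higher and 14 lower, against 2.84% and 22.0% of all genes. Values did not overlap for 1 member that was higher (PFKM) and 15 that were lower, against 4.37% and 25.3% of all genes. The median log2 difference was -0.35 for the members, -0.31 for all genes tested and -0.24 for the genes above 0 in all 6 samples. Without 10 µM replicate 2, 11 members were called lower. The FPKM of 10 µM replicate 2 was the highest of its group for 30 of 35 genes, counted here with GAPDH and without SLC2A3, which was at 0. That library was high over all genes too, with a median log2 deviation from its group of 0.24 over 15278 genes and 0.31 over the same 35 genes. Without 5 µM replicate 3 there were 0, and without 5 µM replicate 1, 5 µM replicate 2 or 10 µM replicate 3 there was 1.

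All 3 called genes were HIF1 targets outside glycolysis. NDRG1, a stress-responsive gene linked to differentiation, had 365, 412 and 402 kFPKM at 5 µM and 149, 241 and 178 kFPKM at 10 µM. Its control values of 414, 414 and 343 kFPKM overlapped those at 5 µM, so it was the 10 µM group that stood apart. The log2 difference from 5 µM to 10 µM was -1.08 (standard error 0.19, adjusted p = 0.0203). ADM went from 121, 156 and 154 to 68.9, 82.3 and 68.2 kFPKM (log2 difference -0.97, standard error 0.16, adjusted p = 0.0151). EGLN3 went from 49.9, 48.4 and 53.4 to 28.7, 33.7 and 22.9 kFPKM (log2 difference -0.85, standard error 0.18, adjusted p = 0.0429). For ADM and EGLN3 the 10 µM values overlapped those of the control. NDRG1 lost its call without any 1 of the 5 µM libraries or 10 µM replicate 3, ADM without 5 µM replicate 2 or 3, and EGLN3 without any of the 6 libraries other than 10 µM replicate 2. EGLN3 also lost its call under median-of-ratios scaling (log2 difference -0.61, adjusted p = 0.0549). NDRG1 was also past the 2-fold limit, against 4.82% lower of all genes.

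All 10 HIF1 targets outside glycolysis had negative log2 differences in this comparison, with a median of -0.51, though VEGFA and ANKRD37 turned positive under median-of-ratios scaling. Negative differences were also the rule over all genes, at 75.6% of those tested and 73.9% of those above 0 in all 6 samples, and over the members, at 28 of 35. ALDOC missed the threshold (101 to 110 kFPKM at 5 µM, 53.4 to 78.8 kFPKM at 10 µM, log2 difference -0.71, standard error 0.17, adjusted p = 0.0562), as did P4HA2 (log2 difference -0.58, standard error 0.16, adjusted p = 0.0915). Of the enzymes that fell at 5 µM, GPI, PFKL, PFKM, ENO1 and LDHB had positive log2 differences between 0.03 and 0.36 from 5 µM to 10 µM, none of them called. Both comparisons share the 5 µM samples, and their signs are not independent.

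Between 0 µM and 10 µM, 34 of the 35 members were tested, SLC2A3 being listed at 0 throughout. Limma called 1 higher and 3 lower, against 5.39% higher and 9.71% lower of 18928 genes tested. Groups did not overlap for 3 members that were higher and 10 that were lower, against 14.4% and 26.7%. The median log2 difference was -0.17 for the members, -0.15 for all genes tested and -0.23 for the genes above 0 in all 6 samples. Without 10 µM replicate 2 the members lower numbered 14. They numbered 1 without control replicate 3, and 0 without control replicate 1, control replicate 2, 10 µM replicate 1 or 10 µM replicate 3.

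ENO2 was the member called higher. Its 263, 280 and 265 kFPKM at 10 µM were all above the control values (log2 difference 1.19, standard error 0.15, adjusted p = 0.0062), and its call held under every alternative run. Those lower were NDRG1 (log2 difference -1.06, standard error 0.19, adjusted p = 0.0175), HK1 with 179, 285 and 208 kFPKM at 10 µM (log2 difference -0.71, standard error 0.19, adjusted p = 0.046), and PFKM with 128, 145 and 127 kFPKM (log2 difference -0.46, standard error 0.12, adjusted p = 0.0407). LDHA, LDHB, PGK1 and GPI had log2 differences between -0.88 and -0.64 and did not pass. The calls of HK1 and PFKM were lost without any 1 of the 6 libraries other than 10 µM replicate 2. They were also lost under total FPKM scaling, with log2 differences of -0.33 for HK1 (adjusted p = 0.0739) and -0.08 for PFKM (adjusted p = 0.635), PFKM under median-of-ratios scaling (log2 difference -0.22, adjusted p = 0.128), and HK1 with no filter on low values (adjusted p = 0.0609). The call of NDRG1 was lost without control replicate 1 or 2 or 10 µM replicate 1 or 3. ENO2 and NDRG1 were past the 2-fold limit, against 4.07% higher and 3.4% lower of all genes. At 10 µM the spread was wide for the abundant enzymes, as in LDHB with 1330, 2478 and 1981 kFPKM.

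Over the 3 comparisons, 14 members tested in each were called in none: HK2, PFKFB3, ALDOA, TPI1, PGAM1, PGM1, SLC16A1, PDK1, PDK3, CA9, VEGFA, BNIP3, ANKRD37 and KDM3A. A missed threshold with 3 cultures a group does not show that their levels were equal.

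Isozyme make-up was examined within libraries, where the normalizing term cancels. ENO2 made 1.94, 2.66 and 3.59% of the summed enolase FPKM in the control, 11, 9.8 and 9.23% at 5 µM, and 10.4, 6.21 and 7.7% at 10 µM. Both treated groups were wholly above the control. ALDOC made 0.764 ± 0.203% of aldolase without 5-Aza, 2.02 ± 0.166% with 5 µM and 1.6 ± 0.216% with 10 µM (SD, n = 3), and so stayed a minor form. PFKFB4 made 9.43 ± 0.947%, 20.2 ± 1.31% and 18.3 ± 2.85% of its pair with PFKFB3.

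Other shares were raised at 5 µM and near the control at 10 µM. PFKP made 57.1, 56.3 and 52.2% of phosphofructokinase without 5-Aza, 69.2, 67.8 and 72.6% with 5 µM and 56.9, 59.9 and 56.9% with 10 µM. HK2 made 22.7 ± 1.78%, 30.2 ± 0.247% and 23.2 ± 3.12% of the hexokinase pair (SD, n = 3). LDHB made 63.3 ± 2.38%, 56.7 ± 1.03% and 61.5 ± 1.02% of lactate dehydrogenase, so that LDHA gained share at 5 µM while both genes fell.

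Summed by family, the hexokinase pair had 466 ± 45.6 kFPKM in the control and 362 ± 41.3 kFPKM at 5 µM (SD, n = 3), and lactate dehydrogenase 5460 ± 592 and 3140 ± 344 kFPKM. The pair does not hold all hexokinase RNA. HKDC1, outside the members, was called higher at 5 µM (357 ± 10.6 to 423 ± 19.7 kFPKM, log2 difference 0.24). PFKFB2, likewise outside the pair of PFKFB3 and PFKFB4, was also called higher (104 ± 6 to 150 ± 11.6 kFPKM, log2 difference 0.53). The phosphofructokinase sum was 940 ± 96.5 kFPKM in the control and 982 ± 37.4 kFPKM at 5 µM. These sums describe RNA and not enzyme activity.

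The isozyme and GAPDH ratios formed a family of 18 pairs, with SLC2A3 to SLC2A1 left out for its zeros, and 40 exact two-sided permutation tests of 3 against 3 libraries. The smallest p the design allows is 0.1, and the smallest adjusted p was 0.19, so none could pass. The 40 include the GAPDH ratios from 5 µM to 10 µM, which use values that chose the list and are a description only. From 0 µM to 5 µM, 7 of the 11 isozyme ratios were higher and 1 lower without overlap, among them ENO2 to ENO1 by 4.16-fold (log2 2.06, standard error 0.28, exact p = 0.1, adjusted 0.19). From 5 µM to 10 µM the PFKP to PFKL ratio was 0.568 of its 5 µM value and the HK2 to HK1 ratio 0.695, both without overlap.

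**Figure D4:**
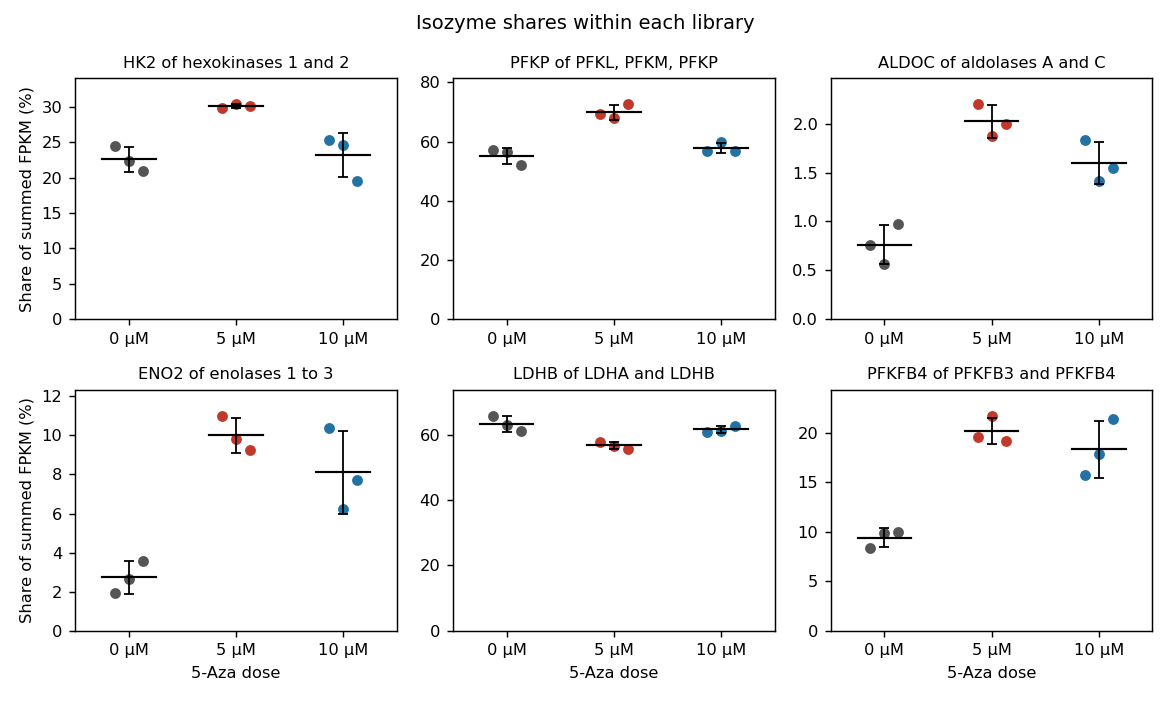
Share of 1 isozyme in the summed FPKM of its family (y axes, percent, from 0) in each library by 5-Aza dose, with 3 points per dose in the order of the replicate numbers, a line at the mean and bars of 1 SD. ENO2, ALDOC and PFKFB4 are above the control at both doses, HK2 and PFKP are above it at 5 µM, and LDHB is below it at 5 µM.

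Further genes of the same pathways were counted from fixed lists. Of 35 tested glycolysis and pyruvate genes outside the members, 7 were higher and 5 lower at 5 µM, against 21.3% higher and 17.7% lower of all genes tested. PKM2 (the older symbol of pyruvate kinase PKM) fell from 9835, 10027 and 8877 to 6459, 6356 and 7392 kFPKM (log2 difference -0.51, standard error 0.13, adjusted p = 0.022), though not under total FPKM scaling (adjusted p = 0.119). FBP1, which runs the phosphofructokinase step in reverse for glucose synthesis, fell with a log2 difference of -1.50 (standard error 0.08, adjusted p = 0.000178). PDP1, the phosphatase that opposes the PDK kinases, rose with a log2 difference of 0.93 (standard error 0.10, adjusted p = 0.000926), while PDK4 fell (log2 difference -0.55, standard error 0.13, adjusted p = 0.0197, and 0.151 under total FPKM scaling). From 5 µM to 10 µM the counts of 36 tested genes were 0 higher and 3 lower (0 and 14 at an unadjusted p under 0.05, against the 2.84% and 22.0% of all genes given above), and from 0 µM to 10 µM 1 higher and 5 lower. Over all genes the shares called higher and lower were 0.319% and 5.85% from 5 µM to 10 µM, and 5.39% and 9.71% from 0 µM to 10 µM.

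Of 29 further hypoxia targets, 12 were higher and 5 lower at 5 µM, 0 and 5 from 5 µM to 10 µM (0 and 15 at an unadjusted p under 0.05, beside the same background), and 3 and 6 from 0 µM to 10 µM. Over all genes the shares called higher and lower were 21.3% and 17.7%, 0.319% and 5.85%, and 5.39% and 9.71% in these comparisons. STC2, a secreted glycoprotein, was listed at 0 in the control and at 25, 30.9 and 26 kFPKM at 5 µM. LOX and PLOD1, enzymes of collagen cross-linking and lysine hydroxylation, also rose at 5 µM, with log2 differences of 1.53 (adjusted p = 0.00267) and 1.39 (adjusted p = 0.00024). In the other direction, CA12, a carbonic anhydrase related to CA9, fell from 2572, 2746 and 2906 to 1151, 1226 and 1228 kFPKM (log2 difference -1.19, standard error 0.08, adjusted p = 0.00027), and DDIT4, an inhibitor of mTORC1, fell with a log2 difference of -0.98 (adjusted p = 0.000654).

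The regulators of HIF were counted as 2 higher and 2 lower of 11 at 5 µM, 0 and 1 from 5 µM to 10 µM (0 and 6 at an unadjusted p under 0.05, beside the same background), and 1 and 2 from 0 µM to 10 µM. The called shares over all genes were again 21.3% and 17.7%, 0.319% and 5.85%, and 5.39% and 9.71%. HIF1A itself had 254, 260 and 244 kFPKM in the control, 213, 281 and 303 kFPKM at 5 µM and 157, 234 and 136 kFPKM at 10 µM. It was not called at 5 µM (log2 difference 0.06, standard error 0.14, adjusted p = 0.757), and HIF1A is mainly controlled as a protein, which was not measured. EGLN1 and HIF1AN, hydroxylases that restrain HIF, fell at 5 µM with log2 differences of -0.51 (standard error 0.12, adjusted p = 0.0196) and -0.56 (standard error 0.11, adjusted p = 0.00922), and EGLN1 lost its call under total FPKM scaling (adjusted p = 0.159). The 2 called higher were CITED4 and ARNT2. CITED4 went from 12, 23.9 and 16.2 to 39.4, 39.3 and 43.4 kFPKM (log2 difference 1.28). ARNT2 was listed at 0 in the control and at only 0.4, 0.315 and 0.934 kFPKM at 5 µM.

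Of 15 other genes in common use as references, 1 was higher and 6 lower at 5 µM, and limma called 0 in either direction in the other comparisons (at an unadjusted p under 0.05, 0 higher and 0 lower from 5 µM to 10 µM, and 1 and 5 from 0 µM to 10 µM, where 11.3% of all genes were higher and 24.2% lower). At 5 µM limma called 21.3% of all genes higher and 17.7% lower. EEF1A1, a translation elongation factor, fell from 24818, 25158 and 21771 to 8820, 10658 and 10834 kFPKM (log2 difference -1.25, standard error 0.17, adjusted p = 0.0022), and the ribosomal genes RPLP0 and RPL13A fell with log2 differences of -1.09 (adjusted p = 0.00142) and -1.35 (adjusted p = 0.000996). B2M rose (log2 difference 0.82, standard error 0.22, adjusted p = 0.0271). The difference of GAPDH, at -0.72, thus lay between those of the ribosomal genes and that of PPIA, which fell by 0.56 on the log2 scale (adjusted p = 0.021, and 0.055 under total FPKM scaling).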

How the data were processed

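RNA-Seq FPKM values of 9 HT-29 cultures (3 each at 0, 5 and 10 µM 5-Aza) were analysed. The authors used FASTX-Toolkit to filter reads, TopHat to align them (hg19) and Cufflinks to compute the deposited FPKM values per gene, 1 table per culture. The Cufflinks options and the normalizing term are not given in the sources used here, and an exact 0 can be a failed estimate. The deposited FPKM values were transformed as log2(FPKM + 1), the scale of every log2 difference, and each pair of groups was compared over all genes whose highest value reached 10, with limma 3.58.1 under R 4.3.3 (eBayes with an intensity trend, 6 samples, no block). A gene was called when its Benjamini-Hochberg adjusted p did not exceed 0.05. Ratios within libraries were compared by an exact permutation test.

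The 35 members and the further lists (glycolysis, hypoxia targets, HIF regulators, reference genes, cell type markers) were chosen with earlier results of these data known. All members called in a comparison are named with full statistics. At most 8 genes per further list are named, and those are called genes or genes with a given role. Fragments were estimated from steps of low values at 12 microRNA genes of 110 nucleotides (46 of 46 values whole within 0.01) and annotated lengths. Only 60 of 118 genes used to check the lengths fell within 15%, so these estimates are rough and were not tested as counts. Replicate numbers did not pair the samples: deviations correlated from -0.074 to 0.086 over 9 same-numbered pairs and from -0.156 to 0.1 over 18 others. Positions are from GENCODE on GRCh37, and promoters from RefSeq GRCh38.p14. Tables and plots used pandas 2.3.3, numpy 2.4.6, scipy 1.17.1 and matplotlib 3.10.9. Scripts were tested on simulated data. Alternatives were other pseudocounts (0.1 and 1000), filters, scalings, a fit of all 9 samples, the replicate block, the study's 2-fold limit and each library left out. Some genes of the further lists are not reported here.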

Additional observations from a re-analysis of the deposited data

How the results depend on the processing

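Of 26 calls over members and comparisons, those of GPI, PFKM, PFKFB4, ALDOC, ENO2, LDHB, SLC2A1, ADM and EGLN3 at 5 µM vs. 0 µM, and of ENO2 at 10 µM vs. 0 µM, held under all 15 alternatives run for each. The limit of 2-fold is not among the 15, and of these genes only PFKFB4, ALDOC and ENO2 also passed it. The causes of the changes given here were not tested. With all 9 samples in 1 fit, the members called higher and lower were 6 and 4 at 5 µM vs. 0 µM (10 and 9 as reported), 0 and 5 at 10 µM vs. 5 µM (0 and 3) and 2 and 10 at 10 µM vs. 0 µM (1 and 3). With scaling to equal total FPKM they were 17 and 4, 0 and 6, and 6 and 1. With median-of-ratios scaling they were 11 and 9, 2 and 2, and 3 and 2. With a limit of 2-fold they were 3 and 0, 0 and 1, and 1 and 1. Total scaling moved the median log2 difference of genes above 0 in all 6 samples from -0.04 to 0.25 at 5 µM vs. 0 µM and from -0.23 to 0.14 at 10 µM vs. 0 µM, and median-of-ratios scaling moved it from -0.24 to 0.00 at 10 µM vs. 5 µM. The share of all called genes that were higher went from 54.5% to 81.0% under total scaling at 5 µM vs. 0 µM, from 5.17% to 27.3% under median-of-ratios scaling at 10 µM vs. 5 µM, and from 35.7% to 51.4% and 69.8% under the 2 scalings at 10 µM vs. 0 µM. GAPDH kept its negative log2 difference at 5 µM, at -0.68 and -0.43. Values that changed sign with a call, all under total scaling, were 0.24 for ALDOA (adjusted p = 0.0478 by limma) and 0.28 for TPI1 (0.014) at 5 µM vs. 0 µM, and 0.34 for PFKL (0.0434) and 0.33 for PFKP (0.0468) at 10 µM vs. 0 µM. Calls lost at 5 µM vs. 0 µM besides those in the report were PGK1 (-0.13, adjusted p = 0.191) and ENO1 (-0.23, 0.0807) under total scaling, PGK1 (0.15), ENO1 (0.149), ENO3 (0.0524), P4HA2 (0.0815) and SLC16A3 (0.336) in the fit of all 9 samples, and ENO3 (0.0515) with no filter. Of the called genes outside the members, under the scalings added after the values were seen, total scaling ended the calls of PKM2 (-0.22, 0.119), PGM2, PDK4, EGLN1 (-0.23, 0.159), PPIA (-0.28, 0.055) and SDHA at 5 µM vs. 0 µM, HIF3A at 10 µM vs. 5 µM, and PGM2, PDK2, INSIG2 and EDN1 at 10 µM vs. 0 µM, and median-of-ratios scaling those of PDK4 and HIF3A at 10 µM vs. 5 µM and EDN1 at 10 µM vs. 0 µM. A further 74 of 1603 values changed sign without passing the threshold in either setting. With each library left out in turn, the members higher and lower ranged from 6 to 9 and from 6 to 9 at 5 µM vs. 0 µM, from 0 to 0 and from 0 to 11 at 10 µM vs. 5 µM, and from 1 to 1 and from 0 to 14 at 10 µM vs. 0 µM. With the replicate block they were 8 and 7, 0 and 2, and 1 and 2. PFKP, PGK1, ENO1 and SLC16A3 at 5 µM vs. 0 µM, EGLN3 at 10 µM vs. 5 µM and PFKM at 10 µM vs. 0 µM lost their calls under it, and the samples share a number rather than a pairing. Depth limits SLC2A3, PDK3 and ANKRD37 most, with an estimated 0 to 6.22, 16.3 to 151 and 10.8 to 57.1 fragments per library.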
